A study of Mus musculus with 8 samples.

Results

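Mepenzolate was set against vehicle in mouse lung 7 h after dosing, on 4 of the 8 arrays of the study. Members were chosen by the treatment and time in their titles, which gave 2 mepenzolate arrays and 2 vehicle arrays, and the other 4 arrays hold the same treatments at 25 h. The study asked how mepenzolate lowers inflammation and oxidative stress in the lung, and its stated analysis was at 25 h. Mepenzolate in PBS was placed in the trachea with a micropipette under chloral hydrate (500 mg/kg). The protocol describes this for mepenzolate, and what the vehicle animals received is given only as vehicle. The dose of mepenzolate and the strain, sex and age of the mice are not given in the sources used here, and the labels name no lung injury or disease model. Whether the replicates of a group are different animals is not stated, and the p-values reflect only how far these arrays spread, which may be technical.

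Mepenzolate blocks muscarinic acetylcholine receptors. In the airway, acetylcholine from parasympathetic nerves acts through these receptors to contract smooth muscle and to drive secretion from glands and epithelium, and the autoreceptor Chrm2 restrains its release. Glucocorticoids act through a nuclear receptor, Nr3c1, which binds short DNA elements and raises the transcription of genes that damp inflammation, store and mobilise fuel and restrain growth. The conducting airways are lined by ciliated cells, which move mucus, and by secretory cells such as club cells, which make secretoglobins, mucins and defence proteins.

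The 4 arrays carried the markers of lung at high and even levels. Sftpc, the surfactant protein of alveolar type 2 cells, lay between 13.49 and 13.56 on the log2 scale, Ager of alveolar type 1 cells between 12.40 and 12.47, and Scgb1a1 of club cells between 13.23 and 13.30. The mepenzolate arrays differed from each other more than any other pair: over the 14953 genes tested the SD of the gap between replicates was 0.235, against 0.181 for vehicle at 7 h and 0.202 and 0.153 for mepenzolate and vehicle at 25 h. A gap of 1 log2 unit or more was present in 32 genes of the mepenzolate pair, of which 25 were lower on replicate 2, against 27 genes of the vehicle pair at 7 h and 16 of each pair at 25 h. Group differences are given with all arrays and without mepenzolate replicate 2. Without it the lone mepenzolate array is assumed to vary as the other groups do.

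No gene passed the limma test of mepenzolate against vehicle after Benjamini-Hochberg adjustment (0 of 14953 genes, 0%; smallest adjusted p = 0.966). At an unadjusted p under 0.05 there were 357 genes, of which 111 stood higher (0.742% of genes tested) and 246 lower (1.65%). The groups did not overlap in 1235 genes that were higher (8.26%) and in 2314 that were lower (15.5%). Over all genes the median log2 difference, mepenzolate minus vehicle, was -0.013, with 56.4% of genes lower. A difference of 1 log2 unit or more was found in 19 genes, 5 higher and 14 lower. With 2 arrays against 2, an exact permutation test of a single gene cannot give a p below 0.333.

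Without mepenzolate replicate 2, 1 gene passed (0.00669%), and 301 genes stood higher (2.01%) and 412 lower (2.76%) at an unadjusted p under 0.05. The median difference was then 0.0046, with 48.5% of genes lower. Without mepenzolate replicate 1, 2 genes passed, with 407 higher and 730 lower at an unadjusted p under 0.05, and without vehicle replicate 2 there were 168 higher and 226 lower. The genes that passed were Atrn in the first case and Alb and Bpifa1 in the second, and each differed mainly on the array that was kept.

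Of the 12 genes lower with mepenzolate by the smallest unadjusted p, Angptl4, Zbtb16 and Ddit4 are on the list of genes that glucocorticoids induce, Itga2b, Gp9 and Tubb1 on the platelet list, Lypd2 on the secretory airway list, Ces1f on the xenobiotic list and Padi4 on the neutrophil list. They were chosen from genes whose groups do not overlap, so their separation is how they were chosen. Angptl4, a secreted inhibitor of lipoprotein lipase, measured 8.36 and 8.16 with vehicle and 7.66 and 7.66 with mepenzolate (difference -0.60 ± 0.10, moderated SE; adjusted p = 0.966). Both mepenzolate arrays gave the same level, below both vehicle arrays, and the difference was also -0.60 without replicate 2. Rtn1, which shapes endoplasmic reticulum membranes, measured 8.06 and 8.01 against 7.46 and 7.60 (-0.51 ± 0.08, and -0.58 without replicate 2). Nt5dc3, a gene of the nucleotidase family, measured 8.14 and 8.15 against 7.74 and 7.55 (-0.50 ± 0.08, and -0.41 without replicate 2). In these genes the spread within each pair was smaller than the distance between the pairs.

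Padi4, the neutrophil enzyme that converts arginine residues of histones to citrulline, measured 6.70 and 7.17 with vehicle and 5.87 and 5.81 with mepenzolate (-1.09 ± 0.20; adjusted p = 1.00). The mepenzolate arrays were near each other and the vehicle arrays apart. Both mepenzolate values lay below the level of the filter on dim genes (5.93). Cd300lg, a receptor of capillary and venular endothelium, measured 8.94 and 8.35 against 7.84 and 7.73 (-0.86 ± 0.17). Ces1f, a carboxylesterase with closely related copies, measured 7.20 and 7.05 against 6.58 and 6.62 (-0.53 ± 0.11). Without replicate 2 these stood at -1.06, -0.81 and -0.55, close to their values with it. Lypd2, Itga2b, Zbtb16, Gp9, Tubb1 and Ddit4 complete the 12 and are described with their groups.

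Among the genes higher with mepenzolate, Rnase1, a secreted ribonuclease, had the smallest p of all genes. It measured 5.98 and 6.04 with vehicle and 6.93 and 6.60 with mepenzolate (0.75 ± 0.11; adjusted p = 0.966), and stood at 0.92 without replicate 2. Its vehicle level lay just above the filter on dim genes (5.93). Cftr, the chloride channel of secretory epithelium, measured 6.89 and 6.75 against 7.76 and 7.27 (0.69 ± 0.15, and 0.94 without replicate 2). Scrg1, a secreted factor known from cartilage, measured 5.55 and 6.21 against 7.39 and 6.83 (1.23 ± 0.25, and 1.50 without replicate 2), with vehicle replicate 1 below that filter level. All 3 were higher on both mepenzolate arrays, with replicate 1 above replicate 2.

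Fbxo44, a substrate adaptor of a ubiquitin ligase, measured 6.17 and 6.38 with vehicle and 6.82 and 7.30 with mepenzolate (0.79 ± 0.18). Rarres1, a gene induced by retinoic acid, measured 5.71 and 5.95 against 6.64 and 6.57 (0.78 ± 0.18), with vehicle replicate 1 below the filter level (5.93). Jchain, which joins units of IgA and IgM, measured 7.26 and 7.01 against 7.55 and 7.86 (0.57 ± 0.13). Without replicate 2 they stood at 0.55, 0.81 and 0.41. Rnf225 (0.54 ± 0.08, 0.57 without replicate 2), Abcg3 (0.42 ± 0.09, 0.52 without replicate 2), Zfp617 (0.56 ± 0.13, 0.61 without replicate 2), Foxn2 (0.35 ± 0.09, 0.39 without replicate 2) and Mki67 (0.35 ± 0.09, 0.41 without replicate 2) were also higher on both mepenzolate arrays than on both vehicle arrays, and none of the 12 higher genes passed adjustment (adjusted p = 0.966 for Rnase1 and Rnf225 and 1.00 for the others). Ahsg, also of the 12, passed the filter only through the mepenzolate arrays at 7 h and is given with the liver genes.

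**Figure D1:**
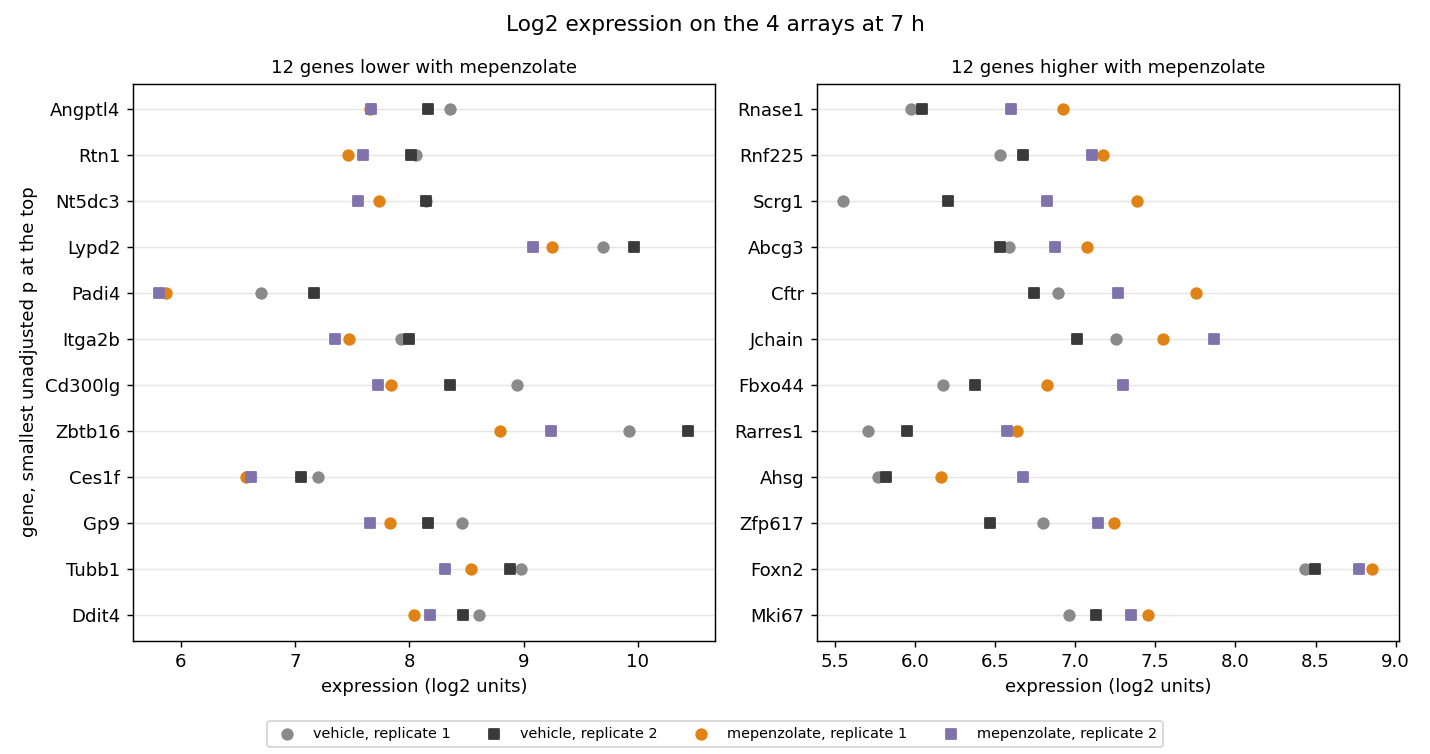
Log2 expression (horizontal axis) of the 12 lower and 12 higher genes with the smallest unadjusted p, 1 point per array, circles for replicate 1 and squares for replicate 2, grey or black for vehicle and orange or violet for mepenzolate. In each row the 2 mepenzolate points lie on one side of the 2 vehicle points, as the choice of genes requires, and Zbtb16 (-1.16) and Scrg1 (1.23) have the widest distances between group means.

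Genes known to be induced by glucocorticoids stood mostly lower with mepenzolate. The list, like all lists here, was chosen with earlier results of these data known, so its shares are a description and no test. Of 24 listed genes 23 were tested, 19 stood lower and 4 higher, and the median difference was -0.22, against -0.013 over all genes. At an unadjusted p under 0.05 there were 8 lower (1.65% of all genes were) and 2 higher (0.742%), and 0 passed adjustment. Of the members, 14 lay below vehicle with no overlap (15.5% of all genes did). Without mepenzolate replicate 2 the median was -0.30, with 20 of 23 lower. At 25 h the median was 0.04.

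Zbtb16, a zinc finger transcription factor strongly induced by glucocorticoids, measured 9.92 and 10.44 with vehicle and 8.79 and 9.24 with mepenzolate (-1.16 ± 0.22; adjusted p = 1.00). The lowest vehicle array lay above the highest mepenzolate array, and the difference was -1.39 without replicate 2. Ddit4, which restrains mTOR signalling, measured 8.61 and 8.47 against 8.04 and 8.18 (-0.43 ± 0.09, and -0.49 without replicate 2). Fkbp5, a co-chaperone that lowers the receptor's affinity for its ligand, measured 7.39 and 7.73 against 6.96 and 7.14 (-0.51 ± 0.15, and -0.60 without replicate 2). Pdk4, the kinase that shuts off pyruvate dehydrogenase, measured 9.22 and 8.91 against 8.38 and 8.36 (-0.70 ± 0.21, and -0.69 without replicate 2). In all 4 the arrays of the groups did not overlap. The metallothionein Mt1 (-0.26 ± 0.09, -0.25 without replicate 2), Tsc22d3, which encodes the anti-inflammatory leucine zipper protein GILZ (-0.27 ± 0.10, -0.34 without replicate 2), and Errfi1, a brake on epidermal growth factor receptors (-0.34 ± 0.14, -0.44 without replicate 2), also had unadjusted p under 0.05.

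The members did not all lie on one side. Sgk1, a kinase that raises sodium transport, measured 9.32 and 9.37 with vehicle and 9.64 and 9.54 with mepenzolate (0.25 ± 0.08). Il1r2, the decoy receptor for interleukin 1 that is also a neutrophil marker, measured 6.08 and 5.84 against 6.16 and 6.33 (0.28 ± 0.11). Both were higher on each mepenzolate array, and they stood at 0.29 and 0.20 without replicate 2. Among members with larger p, Dusp1, a phosphatase of MAP kinases (-0.24 ± 0.14, -0.32 without replicate 2), Per1, a clock gene (-0.22 ± 0.21, -0.31 without replicate 2), and Map3k6 (-0.22 ± 0.13, -0.40 without replicate 2) lay lower without overlap. The receptor gene Nr3c1 measured 9.75 and 9.85 against 9.90 and 9.82 (0.06 ± 0.08, 0.09 without replicate 2), and its groups overlapped.

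**Figure D2:**
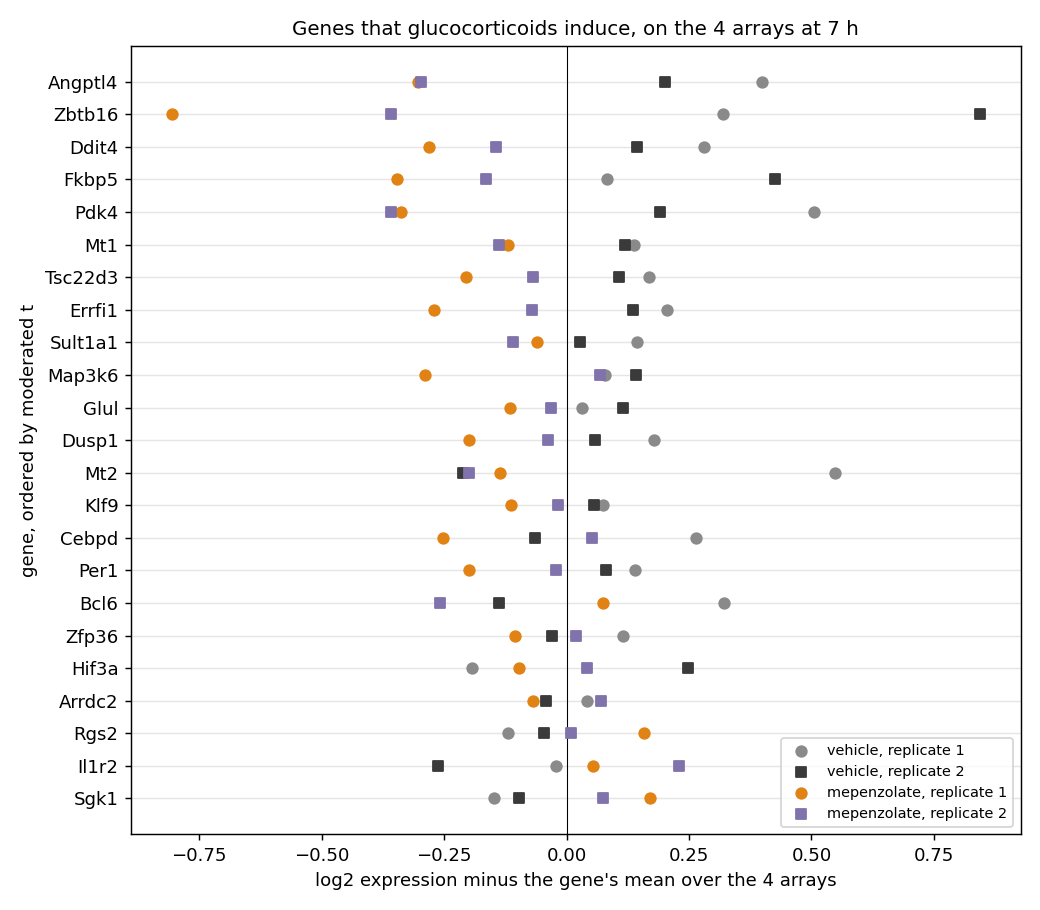
Log2 expression of the 23 tested genes that glucocorticoids induce, as the deviation from each gene's mean over the 4 arrays (horizontal axis), 1 point per array, ordered by moderated t from the most negative at the top. The mepenzolate points (orange, violet) lie left of the vehicle points (grey, black) in 14 genes and right of them in 3, Rgs2, Il1r2 and Sgk1.

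The promoters of these genes were searched for the core motif of the receptor's DNA element next to the start of transcription. A search for exact copies of the motif does not show whether the full element is present. Of the members that had an entry, those with the largest moderated t in size are printed. In 250 bases upstream of the start (RefSeq, build GRCm38.p6), the core motif AGAACA of the receptor's element was searched on both strands (TGTTCT when read on the other). It was present for 4 of 20 list genes with a promoter entry, and for 18.2% of all 27025 genes with one, so its share in the list is near that of all genes. Angptl4, Zbtb16 and Cebpd had no entry. Each sequence runs 5′ to 3′ on the gene's strand and ends at the base before the start, and capitals mark the core motif.
Ddit4, chr10:59951771-59952020, minus strand: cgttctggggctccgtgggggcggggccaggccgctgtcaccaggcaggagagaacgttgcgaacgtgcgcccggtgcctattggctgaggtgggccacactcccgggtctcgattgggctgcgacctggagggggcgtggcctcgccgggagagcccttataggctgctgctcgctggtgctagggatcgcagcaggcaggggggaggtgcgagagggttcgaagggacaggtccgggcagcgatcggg
Fkbp5, chr17:28486150-28486399, minus strand: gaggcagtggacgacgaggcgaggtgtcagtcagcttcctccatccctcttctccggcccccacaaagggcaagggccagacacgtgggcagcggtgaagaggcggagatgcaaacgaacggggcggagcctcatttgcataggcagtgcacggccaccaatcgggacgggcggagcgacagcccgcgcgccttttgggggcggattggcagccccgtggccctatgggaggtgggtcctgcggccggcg
Pdk4, chr6:5496279-5496528, minus strand: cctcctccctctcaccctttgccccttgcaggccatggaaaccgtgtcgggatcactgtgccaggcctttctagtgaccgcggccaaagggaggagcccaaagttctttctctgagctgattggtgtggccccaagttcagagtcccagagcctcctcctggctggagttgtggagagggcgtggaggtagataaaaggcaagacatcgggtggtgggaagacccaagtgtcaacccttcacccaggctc
Sgk1, chr10:21993640-21993889, plus strand, 1 of its 6 listed starts: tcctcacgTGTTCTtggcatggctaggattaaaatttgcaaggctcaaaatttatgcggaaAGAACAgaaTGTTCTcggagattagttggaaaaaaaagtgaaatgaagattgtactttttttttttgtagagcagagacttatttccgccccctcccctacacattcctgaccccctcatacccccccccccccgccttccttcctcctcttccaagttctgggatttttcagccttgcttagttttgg
The Ddit4, Fkbp5 and Pdk4 windows hold no copy of the motif, which says only that these letters are not in these windows. The Sgk1 window was chosen among its 6 because it holds the most copies, 3. A pair of them, 189 and 180 bases before the start, face each other across a spacer of 3 bases, an arrangement found in 3 of 32851 windows (0.00913%). Sgk1 is 1 of the 4 members that stood higher.

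Genes of fatty acid oxidation and targets of PPAR receptors, which share Pdk4 with the list above, also stood mostly lower. Of 21 tested, 19 stood lower, with a median of -0.10 (-0.09 without mepenzolate replicate 2), and 0 passed adjustment. There were 4 lower at an unadjusted p under 0.05 (1.65% of all genes were) and 13 lower without overlap (15.5%), and 56.4% of all genes stood lower. Acaa2, the thiolase of mitochondrial fatty acid oxidation, measured 10.92 and 10.94 with vehicle and 10.75 and 10.62 with mepenzolate (-0.25 ± 0.09, -0.18 without replicate 2). Fabp3, the fatty acid binding protein of heart and muscle, measured 9.40 and 9.47 against 9.03 and 9.11 (-0.37 ± 0.15, -0.41 without replicate 2). Acadl, the long-chain acyl-CoA dehydrogenase, measured 9.84 and 9.73 against 9.57 and 9.57 (-0.21 ± 0.09, -0.21 without replicate 2). All 3 lay lower on both mepenzolate arrays. Heart muscle burns fatty acids and expresses several of these genes, and cardiac markers stood lower too, as given next; their part in this result was not tested.

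Cardiac muscle markers, which a lung sample can carry from pulmonary veins or attached heart, stood lower in 19 of 21 genes (56.4% of all genes did; median -0.23), 3 at an unadjusted p under 0.05 (1.65% of all genes) and 14 without overlap (15.5%). Without mepenzolate replicate 2 all 21 stood lower (median -0.35), and without replicate 1 the median was -0.09. Myoglobin, Mb, measured 10.45 and 10.27 with vehicle and 9.76 and 9.72 with mepenzolate (-0.62 ± 0.16, -0.60 without replicate 2). Phospholamban, Pln, which restrains the calcium pump, measured 9.52 and 9.76 against 8.76 and 9.17 (-0.68 ± 0.24, -0.88 without replicate 2). Cox6a2, the muscle form of a respiratory chain subunit, measured 8.63 and 8.73 against 8.07 and 8.49 (-0.40 ± 0.16, -0.61 without replicate 2). Pln and Cox6a2 were lowest on mepenzolate replicate 1, while the mepenzolate arrays were close for Mb. The list's median deviation from the mean of the 4 arrays was 0.11 and 0.13 on the vehicle arrays and -0.25 and 0.01 on the mepenzolate arrays. In whole tissue, fewer cells of a type and less RNA per cell cannot be told apart.

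Platelet and megakaryocyte genes stood lower in all 11 members tested, of 16 listed (median -0.25, and -0.22 without mepenzolate replicate 2). At an unadjusted p under 0.05 there were 4 (1.65% of all genes were lower so), 6 were lower without overlap (15.5% of all genes), and 0 passed adjustment. Itga2b, the fibrinogen receptor chain, measured 7.93 and 8.0 with vehicle and 7.47 and 7.35 with mepenzolate (-0.55 ± 0.10). Gp9, part of the receptor for von Willebrand factor, measured 8.46 and 8.16 against 7.83 and 7.66 (-0.57 ± 0.12). Tubb1, the tubulin of the platelet's marginal band, measured 8.98 and 8.88 against 8.54 and 8.32 (-0.50 ± 0.11). Without replicate 2 these stood at -0.49, -0.48 and -0.39. The genes of stored chemokines differed mainly on replicate 2: Ppbp measured 10.67 and 10.72 against 10.63 and 9.99, and Pf4 8.07 and 8.07 against 7.97 and 7.78. Without replicate 2 these stood at -0.07 and -0.10. Alox12, the platelet lipoxygenase, followed them (7.62 and 7.63 against 7.41 and 6.94), at -0.45 ± 0.14 with and -0.22 without that array.

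Secretory airway genes stood lower in 22 of 24 members (median -0.27), 8 at an unadjusted p under 0.05 (1.65% of all genes were) and 14 without overlap (15.5%), with 0 past adjustment. Without mepenzolate replicate 2 the median was -0.10 with 18 lower, and without replicate 1 it was -0.54. The 8 were mostly secreted defence proteins and a mucin. Lypd2, a small surface protein of secretory cells, measured 9.70 and 9.97 with vehicle and 9.25 and 9.08 with mepenzolate (-0.67 ± 0.12, and -0.58 without replicate 2). Scgb3a1, a secretoglobin, measured 12.72 and 12.74 against 12.38 and 12.06 (-0.51 ± 0.13, and -0.35 without replicate 2). Aldh3a1, an aldehyde dehydrogenase of airway epithelium, measured 8.38 and 7.96 against 7.62 and 7.33 (-0.70 ± 0.17, and -0.55 without replicate 2). By contrast Scgb1a1 measured 13.23 and 13.28 against 13.26 and 13.30 (0.02 ± 0.09, 0.0037 without replicate 2) and Cyp2f2 13.14 and 13.15 against 13.11 and 13.04 (-0.07 ± 0.08, -0.04 without replicate 2), levels near the top of the scale of this array (13.98).

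The other 5 were lowest on mepenzolate replicate 2, and all but Tff2 were more than 1.5 times smaller without it. Bpifa1, an antimicrobial surface protein of the airway, measured 11.73 and 11.72 with vehicle and 11.30 and 9.32 with mepenzolate (-1.42 ± 0.50, -0.43 without replicate 2 and -2.40 without replicate 1, where its adjusted p was 0.00314). Ltf, lactoferrin, measured 8.46 and 8.72 against 7.96 and 6.42 (-1.40 ± 0.42, and -0.63 without replicate 2). Bpifb1 measured 10.31 and 11.09 against 10.08 and 8.65 (-1.34 ± 0.44, and -0.62 without replicate 2). Tff2, a trefoil peptide that protects mucosa, measured 8.55 and 9.11 against 7.92 and 7.26 (-1.24 ± 0.29, and -0.91 without replicate 2), and the gel-forming mucin Muc5b 10.10 and 10.27 against 9.90 and 9.25 (-0.61 ± 0.20, and -0.28 without replicate 2). In each of these 5 both mepenzolate arrays lay below both vehicle arrays.

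Ciliated cell markers as a list were lower with mepenzolate replicate 2 and not without it. Of 28 genes, 26 stood lower (median -0.18), 0 at an unadjusted p under 0.05 and 3, Foxj1, Cfap126 and Cdhr3, without overlap (15.5% of all genes were). Without mepenzolate replicate 2, 18 of 28 stood higher and 10 lower, and the median was 0.05. Foxj1, the regulator of motile cilia, measured 8.15 and 8.21 with vehicle and 8.09 and 7.82 with mepenzolate (-0.22 ± 0.10, -0.09 without replicate 2). Ccdc39, needed to assemble the axoneme, measured 7.31 and 7.40 against 7.42 and 6.54, and Rsph1, a radial spoke protein, 8.16 and 8.18 against 8.67 and 7.31. For Ccdc39 and Rsph1 replicate 1 lay above and replicate 2 below both vehicle arrays, and without replicate 2 they stood at 0.06 and 0.51. The alveolar type 2 list, with 16 genes and a median of -0.0027 (0.03 without replicate 2), and the alveolar type 1 list, with 12 and a median of 0.04 both ways, showed no such gap.

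**Figure D3:**
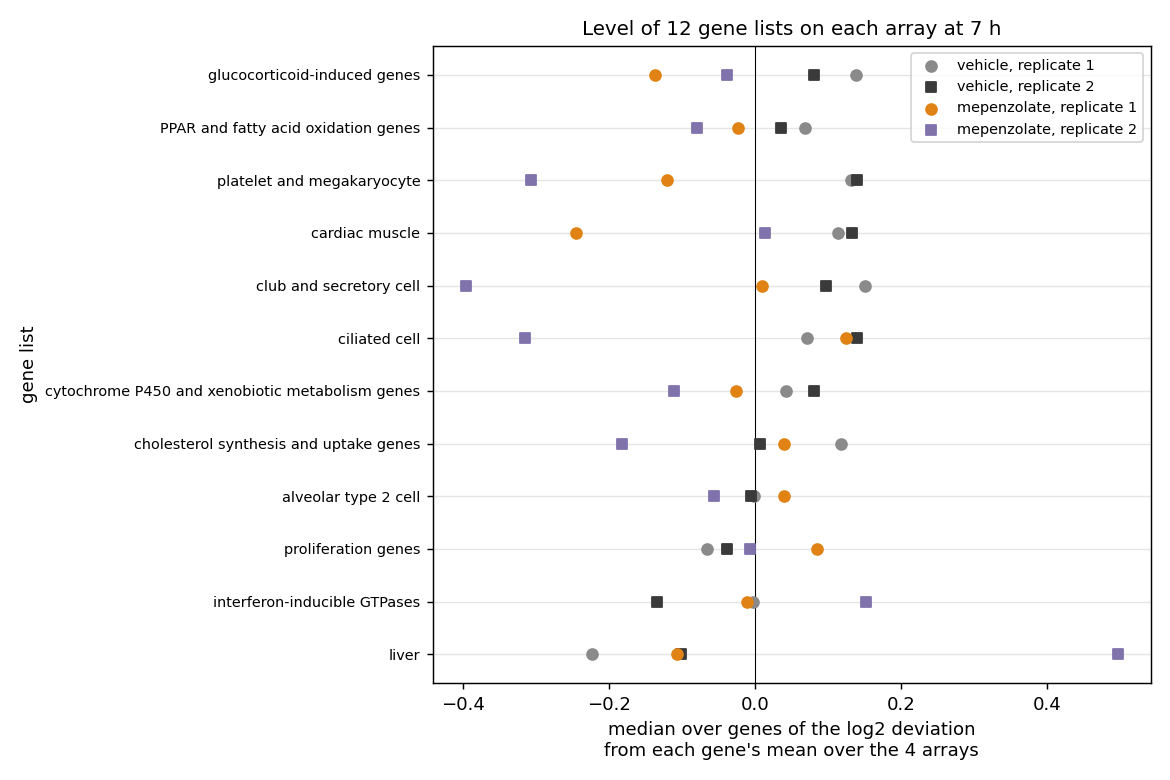
Median over the tested genes of 12 lists of the log2 deviation from each gene's mean over the 4 arrays (horizontal axis), 1 point per array. Club, ciliated and cholesterol lists are lowest and the liver list is highest on mepenzolate replicate 2 (violet). The cardiac list is lowest on mepenzolate replicate 1 (orange). Both mepenzolate arrays lie below both vehicle arrays for the glucocorticoid, fatty acid oxidation, platelet, cardiac, club and xenobiotic lists.

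The liver genes Alb and Ahsg were highest on the same array. Alb, albumin, measured 6.09 and 6.24 with vehicle and 6.24 and 8.93 with mepenzolate (1.42 ± 0.68, 0.08 without replicate 2 and 2.76 without replicate 1, where its adjusted p was 0.00158). Ahsg, the plasma protein fetuin-A, measured 5.77 and 5.82 against 6.16 and 6.68 (0.63 ± 0.15, and 0.37 without replicate 2), and was higher on both mepenzolate arrays. Its mean over the other 6 arrays was 5.85, below the filter on dim genes (5.93), so it entered the test through the arrays where it was high. Of 12 listed liver genes 6 were tested, Ahsg among them, and Apoc3, Ttr, Fgb, Ambp and Apoh were below the filter. Of the 6, 4 stood higher and 2 lower, from -0.38 to 1.42, with a median of 0.23. Without replicate 2, 3 stood higher and 3 lower, with a median of 0.03. The part of liver RNA in these levels was not tested.

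Enzymes of xenobiotic metabolism, many of them made in airway secretory cells, stood lower in 17 of 22 cases (median -0.15, and -0.08 without mepenzolate replicate 2), 5 at an unadjusted p under 0.05 (1.65% of all genes were), 13 without overlap (15.5%) and 0 past adjustment. Besides Ces1f and Aldh3a1 these were Ces1g, another carboxylesterase (-0.42 ± 0.13, -0.33 without replicate 2), Sult1d1, a sulfotransferase (-0.90 ± 0.29, -0.57 without replicate 2), and Adh7, an alcohol dehydrogenase that also oxidises retinol (-0.40 ± 0.16, -0.17 without replicate 2). Sult1d1 measured 9.04 and 9.64 against 8.77 and 8.12, and Adh7 8.14 and 8.27 against 8.04 and 7.57, both lowest on replicate 2. The differences of Sult1d1, Adh7 and Ces1g were smaller in size without that array. The club list stood lower as well, and its part was not tested. Glutathione S-transferases stood lower in 16 of 19 cases (median -0.12, and -0.05 without replicate 2). At an unadjusted p under 0.05 there was 1 (1.65% of all genes were lower so), Mgst2 (-0.28 ± 0.12, -0.20 without replicate 2). Gstp1 measured 10.42 and 11.09 against 11.28 and 11.01 (0.39 ± 0.21, 0.53 without replicate 2). Targets of NRF2, the master regulator of antioxidant genes, stood lower in 18 of 24 cases (median -0.08), and without replicate 2 13 of 24 stood higher (median 0.01). Of these targets 3 were lower at an unadjusted p under 0.05 (1.65% of all genes were). They were the carbonyl reductase Cbr3 (-0.33 ± 0.10, -0.24 without replicate 2), the efflux pump Abcc4 (-0.30 ± 0.09, -0.26 without replicate 2) and the epoxide hydrolase Ephx1 (-0.19 ± 0.08, -0.16 without replicate 2). Nfe2l2, which encodes NRF2, measured 10.84 and 10.85 against 10.87 and 10.84. Cholesterol synthesis genes stood lower in 17 of 19 cases (median -0.11), with 0 at an unadjusted p under 0.05, and at -0.03 without replicate 2.

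Oxidant-producing enzymes lay near vehicle or above it. Of 12 NADPH oxidase genes 8 stood higher (median 0.04, and 0.08 without mepenzolate replicate 2). Nox4, the constitutively active oxidase of stromal cells, measured 8.97 and 9.56 with vehicle and 9.82 and 9.71 with mepenzolate (0.50 ± 0.18, and 0.55 without replicate 2). The vehicle arrays were far apart, and both lay below the mepenzolate arrays. The phagocyte subunits Cybb (0.04 ± 0.12, 0.22 without replicate 2) and Ncf1 (0.03 ± 0.08, 0.05 without replicate 2) and the superoxide dismutases Sod1 (-0.06 ± 0.09, -0.06 without replicate 2) and Sod3 (0.08 ± 0.11, 0.13 without replicate 2) had overlapping groups, and Cybb had an unadjusted p under 0.05 without replicate 2. The groups of Hdac2, a histone deacetylase that glucocorticoid receptors recruit, overlapped too (0.02 ± 0.09, 0.05 without replicate 2). The 18 histone deacetylase and sirtuin genes had a median of -0.03 (-0.02 without replicate 2), with 0 at an unadjusted p under 0.05.

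The cytokine and NF-kappaB medians lay close to vehicle, with a few chemokines above it. Of 14 cytokine genes tested, 8 stood higher (median 0.04, and 0.10 without mepenzolate replicate 2) and 0 had an unadjusted p under 0.05. Tnf measured 6.50 and 6.81 with vehicle and 6.94 and 6.59 with mepenzolate (0.11 ± 0.15, 0.28 without replicate 2), with overlap, and Il1b 8.18 and 7.58 against 8.33 and 8.19 (0.38 ± 0.21, 0.45 without replicate 2), without overlap. Il6 (3.79 and 3.70 against 3.74 and 3.77) and Cxcl2 (5.51 and 5.38 against 5.60 and 5.16) were below the filter on dim genes, and Cxcl1 stood at 0.10 ± 0.09 (-0.0011 without replicate 2). Of 14 CC chemokine genes tested, 8 stood higher and 6 lower (median 0.12, and 0.15 without replicate 2). Without overlap 4 were higher (8.26% of all genes were) and 2 lower (15.5%). Ccl2, which recruits monocytes, measured 6.37 and 6.72 against 6.73 and 7.10 (0.37 ± 0.15, and 0.18 without replicate 2). Ccl6, a chemokine of macrophages, was the one CC chemokine of 14 tested that stood lower at an unadjusted p under 0.05 (1.65% of all genes were). It measured 10.74 and 10.81 against 10.38 and 10.67 (-0.25 ± 0.10, and -0.40 without replicate 2). Nfkbia, the inhibitor of NF-kappaB and itself its target, measured 10.35 and 10.16 with vehicle against a mepenzolate mean of 10.01 (-0.24 ± 0.09, -0.24 without replicate 2), while the 20 genes of the NF-kappaB list had a median of 0.03 (0.10 without replicate 2).

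Some interferon-gamma targets were high on mepenzolate replicate 2. Cxcl9, a chemokine for activated T cells, measured 6.32 and 6.34 with vehicle and 6.37 and 8.71 with mepenzolate (1.21 ± 0.65, and 0.05 without replicate 2). Cxcl10, a related chemokine, measured 5.78 and 5.91 against 6.06 and 6.55 (0.46 ± 0.15, and 0.21 without replicate 2). Its mean over the other 6 arrays was 5.90, so it too passed the filter only through the mepenzolate arrays at 7 h. Of 18 listed interferon-inducible GTPases 9 were matched and tested, and these 9 stood higher (median 0.16), 4 without overlap (8.26% of all genes were), and without replicate 2 the count was 5 of 9 and the median 0.02. Iigp1, which attacks vacuoles of parasites, measured 7.89 and 7.90 against 8.23 and 8.84 (0.64 ± 0.22, and 0.33 without replicate 2). Gbp9 was as high on the other array, at 8.71 and 8.56 against 9.02 and 8.92 (0.34 ± 0.12, and 0.38 without replicate 2). Class II histocompatibility genes stood lower in 7 of 9 cases (56.4% of all genes did), with a median of -0.08. Without replicate 2 they stood lower in 8 of 9 cases (48.5% of all genes did), with a median of -0.14. Among them H2-Eb1 was lowest on replicate 2, at 9.87 and 10.22 against 9.74 and 8.05 (-1.15 ± 0.73, -0.31 without replicate 2). The 22 type I interferon-induced genes tested had a median of 0.03 (-0.0081 without replicate 2).

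Neutrophil genes other than Padi4 mostly stood higher. Of 14 tested, 11 stood higher (median 0.17, and 0.16 without mepenzolate replicate 2). S100a8, a calcium-binding protein that fills neutrophil cytosol, measured 8.42 and 7.92 with vehicle and 8.53 and 8.84 with mepenzolate (0.51 ± 0.17, 0.36 without replicate 2), and Cxcr2, their chemokine receptor, 8.84 and 8.25 against 8.87 and 9.07 (0.42 ± 0.19, 0.32 without replicate 2). Vehicle replicate 2 was low in both, and the list's median deviation on the vehicle arrays was 0.084 and -0.29, against 0.054 and 0.053 on the mepenzolate arrays. Padi4 was the one member lower at an unadjusted p under 0.05 (1.65% of all genes were), and 2 were higher (0.742%). The granule gene Ngp measured 6.01 and 6.06 against 5.73 and 5.90 (-0.22 ± 0.12, -0.31 without replicate 2).

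Genes of dividing cells stood slightly higher. Of 28 tested, 25 stood higher (median 0.10, and 0.11 without mepenzolate replicate 2), 2 at an unadjusted p under 0.05 (0.742% of all genes were) and 10 without overlap (8.26% of all genes were). Mki67, present in cycling nuclei, measured 6.96 and 7.13 with vehicle and 7.45 and 7.35 with mepenzolate (0.35 ± 0.09, and 0.41 without replicate 2). Ube2c, a ubiquitin enzyme of mitotic exit, measured 6.86 and 7.01 against 7.19 and 7.14 (0.23 ± 0.10, 0.25 without replicate 2). Without mepenzolate replicate 1 the median was 0.03.

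Medians close to 0 were found for unfolded protein response and elastic fibre genes, though not for mesothelial or plasma cell markers. Of 8 plasma cell markers 6 stood higher (median 0.12, and 0.13 without replicate 2), 4 of them without overlap. Unfolded protein response genes stood higher in 15 of 23 cases (median 0.05, and 0.08 without replicate 2), 10 of them without overlap (8.26% of all genes were) and 0 lower without overlap (15.5%), with Sdf2l1, a cofactor of the chaperone BiP, at 8.54 and 8.62 with vehicle and 8.78 and 8.79 with mepenzolate (0.20 ± 0.08, 0.20 without replicate 2). Elastic fibre and matrix protease genes stood higher in 15 of 21 cases (median 0.05, and 0.10 without replicate 2). The fibulin Fbln2, a basement membrane protein, measured 8.52 and 8.68 against 8.96 and 8.82 (0.29 ± 0.11, 0.36 without replicate 2), and Timp1, an inhibitor of matrix proteases, 7.73 and 7.88 against 8.35 and 8.08 (0.41 ± 0.17, 0.54 without replicate 2). Elastin itself, Eln, measured 10.09 and 10.08 against 10.37 and 9.94, and Mmp12, the elastase of macrophages, 7.04 and 7.06 against 7.32 and 7.03, both with overlap, and without replicate 2 they stood at 0.29 and 0.27. Mesothelial markers stood higher in 7 of 8 cases (median 0.18, and 0.15 without replicate 2), 5 of them without overlap (8.26% of all genes were). Msln measured 7.27 and 7.51 against 7.91 and 7.55 (0.34 ± 0.13, 0.52 without replicate 2). At 25 h the mesothelial median was 0.27.

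The drug's own receptors showed no difference beyond the spread between arrays. Chrm2 measured 9.65 and 9.81 with vehicle and 9.55 and 9.80 with mepenzolate (-0.05 ± 0.12, -0.18 without replicate 2), and Chrm3, the receptor of smooth muscle and glands, 6.74 and 7.50 against 7.06 and 6.91 (-0.13 ± 0.21, -0.06 without replicate 2). Chrm1 stood at -0.06 ± 0.10, and at -0.10 without replicate 2. Acetylcholinesterase, Ache, measured 6.08 and 6.05 against 5.91 and 6.01 (-0.10 ± 0.09, -0.15 without replicate 2), lower without overlap by about its error. Of 11 genes of acetylcholine receptors and handling, 7 stood lower (median -0.05, and -0.10 without replicate 2 with 10 lower), and 0 had an unadjusted p under 0.05.

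**Figure D4:**
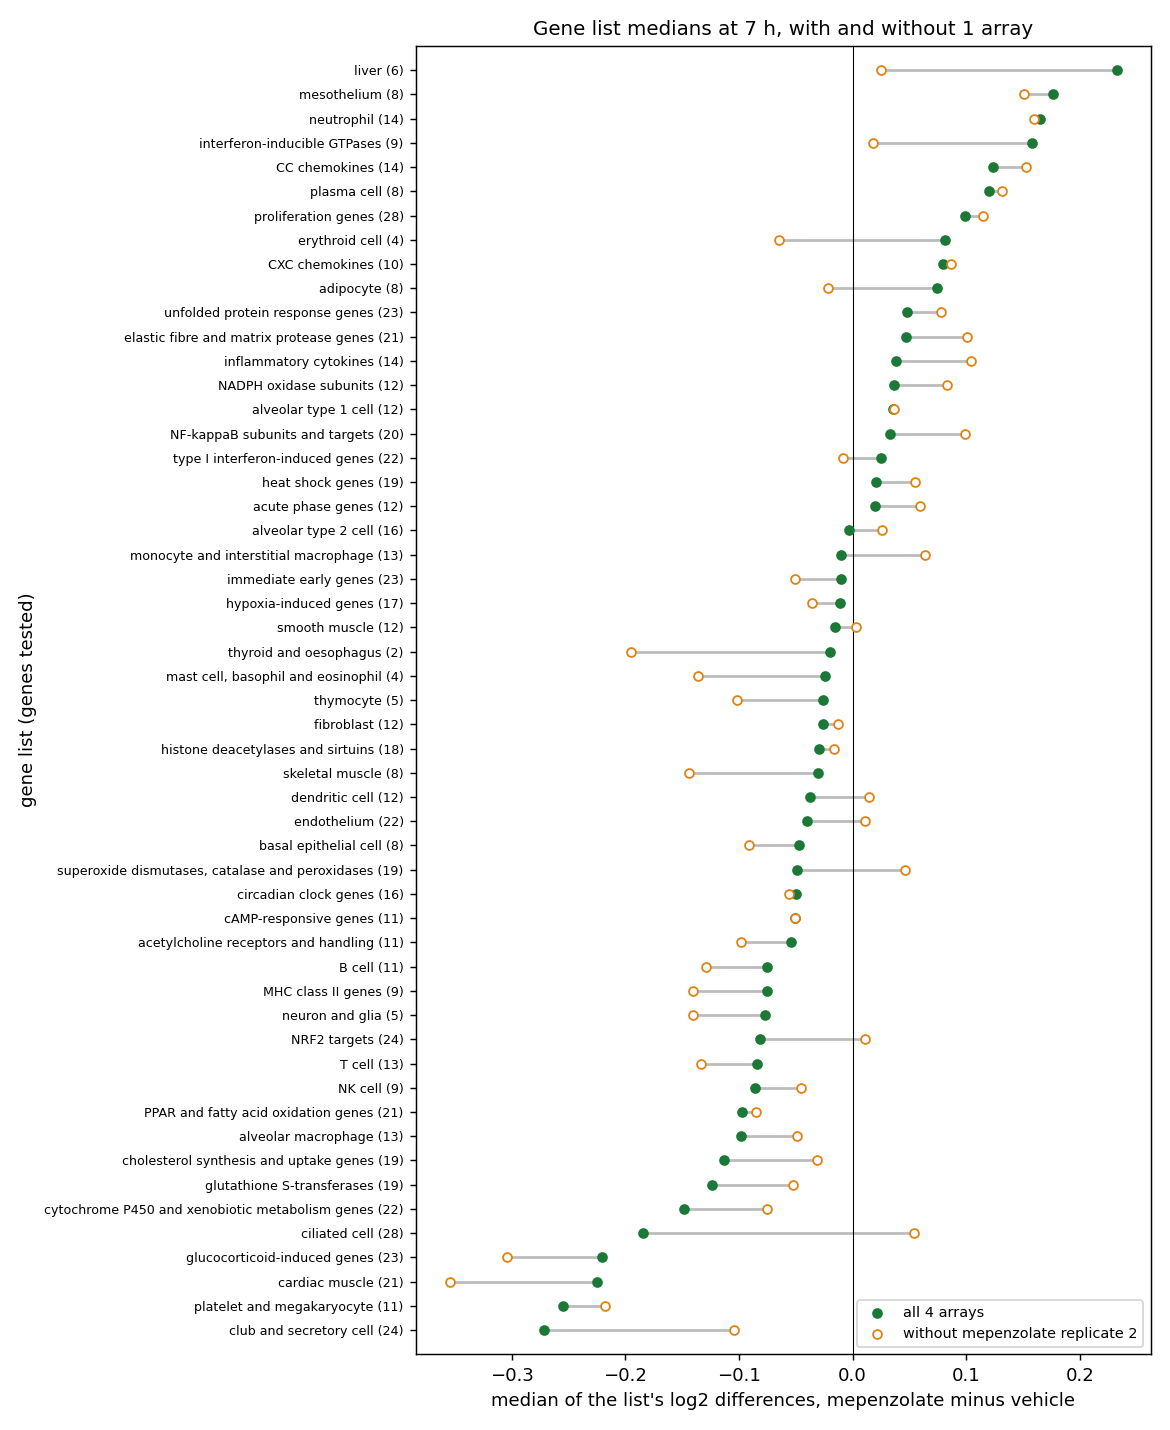
Median log2 difference, mepenzolate minus vehicle (horizontal axis), of the 53 gene lists with all 4 arrays (filled green) and without mepenzolate replicate 2 (open orange), ordered by the first, with the number of genes tested in brackets. The ciliated median moves from -0.18 to 0.05 and the secretory airway median from -0.27 to -0.10, while the platelet, proliferation and fatty acid oxidation medians stay near their place.

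Leaving out mepenzolate replicate 2 turned the sign of 11 of the 53 list medians. Of the 14 lists with a median of at least 0.1 in size, 8 kept that size and direction. In single genes, the one that passed without it was Atrn, attractin, a receptor gene of pigment and nerve biology, at 9.41 and 9.38 with vehicle and 7.75 and 9.37 with mepenzolate (-1.64 without replicate 2, adjusted p = 0.00535; -0.84 ± 0.41 with it, adjusted p = 1.00). It was low on mepenzolate replicate 1 alone, and replicate 2 matched vehicle. A second Atrn probe showed the same pattern at 8.30 and 8.22 against 7.07 and 8.19. Rdh9, a retinol dehydrogenase (6.19 and 6.22 against 5.58 and 6.26), Bpifb5 (7.28 and 7.21 against 6.74 and 7.23), Slc37a1, a sugar phosphate transporter family member (8.57 and 8.61 against 9.84 and 8.47), and Gpr21, an orphan receptor (6.01 and 5.82 against 6.68 and 5.98), ranked high without replicate 2 in the same way, from a value on replicate 1 that replicate 2 did not share. Gpr21 passed the filter on dim genes only through the mepenzolate arrays at 7 h, since its mean over the other 6 arrays was 5.88. Phex, an endopeptidase of phosphate balance (6.88 and 6.95 against 7.60 and 7.07), was furthest from vehicle on replicate 1, with replicate 2 also above both vehicle arrays. Rtn1, Grid1, Zbtb16, Rnase1, Cftr and Abcg3 ranked among the first 6 without replicate 2 and differed on both arrays.

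The genes with the widest gaps within a pair show how far single arrays stood apart. Between the mepenzolate arrays these were Alb, Ctse, Cxcl9, Saa3, Chil1 and Bpifa1. Ctse, cathepsin E, measured 6.74 and 8.64 with vehicle and 8.97 and 6.51 with mepenzolate, so that each group spanned about the same range. Saa3, an acute phase protein, measured 8.24 and 7.50 against 9.33 and 7.01, and Chil1, a chitinase-like protein, 12.60 and 12.12 against 12.31 and 10.29. Lcn2, lipocalin of the same defence response, measured 11.02 and 11.11 against 11.87 and 10.52. In the vehicle pair H2-Ea, a class II histocompatibility chain, measured 6.33 and 11.78, against 6.54 and 6.92 with mepenzolate, and Ang5, of the angiogenin family with close copies, 8.97 and 4.81, against 8.75 and 8.49. Cwc22, a splicing factor, measured 10.37 and 7.98 against 8.09 and 7.71, D17H6S56E-5 6.47 and 8.76 against 6.36 and 6.69, and Car3, a carbonic anhydrase of fat and muscle, 8.50 and 10.27 against 9.90 and 10.19. For H2-Ea, Ang5, Cwc22 and D17H6S56E-5, 1 vehicle array lay apart and the other 3 arrays were close together, so their group differences (-2.33, 1.73, -1.27 and -1.10) rest on that array. At 25 h 1 array lay apart in each of these genes as well. These were vehicle replicate 2 for H2-Ea (11.35) and D17H6S56E-5 (8.37), vehicle replicate 1 for Ang5 (5.41) and mepenzolate replicate 1 for Cwc22 (9.73). The cause was not tested.

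**Figure D5:**
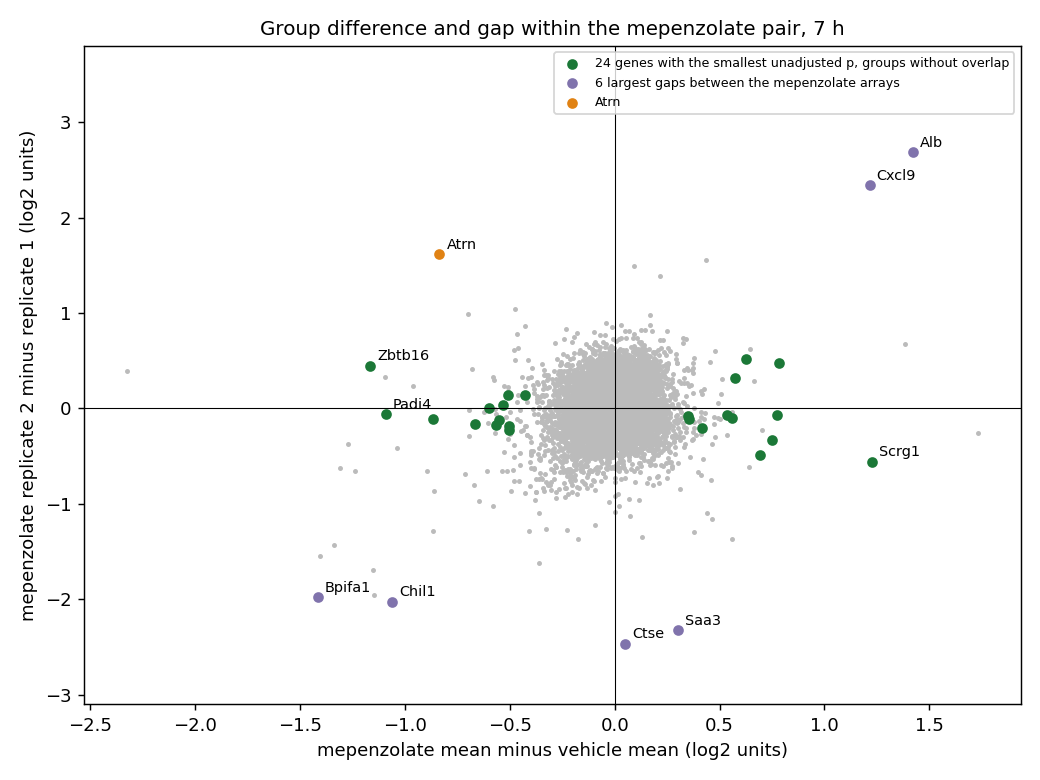
For each of the 14953 genes tested (grey points), the group difference (horizontal axis, log2) against mepenzolate replicate 2 minus replicate 1 (vertical axis, log2). The 24 genes with the smallest unadjusted p and no overlap (green) have gaps of up to 0.56 in size, as their choice favours, whereas Alb and Cxcl9 (top right) and Bpifa1 and Chil1 (bottom left) have gaps of at least 1.98 between the mepenzolate arrays, and Atrn (orange) a gap of 1.62.

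The 7 h differences were set against those at 25 h, which come from other arrays. Across the 14953 genes, which are not independent replicates, the differences at the 2 times had a Pearson r of 0.044. The difference between the times passed for 0 genes (0%; smallest adjusted p = 1.00), and 400 genes had an unadjusted p under 0.05. Without mepenzolate replicate 1 at 7 h 2 genes passed (Alb and Bpifa1), without replicate 2 at 7 h 1 (Atrn), and without vehicle replicate 2 at 25 h 1 (Gdpd3). Padi4 had the smallest p: it stood at -1.09 ± 0.20 at 7 h and 0.94 ± 0.20 at 25 h, a difference of -2.04 ± 0.28. Rtn1 stood at -0.51 and 0.21, Grid1, a glutamate receptor family gene, at -0.58 and 0.36, and Cd3g, which signals for the T cell antigen receptor, at -0.22 and 0.57. In the other direction Fbxo44 stood at 0.79 and -0.36, Sdhaf4, an assembly factor of succinate dehydrogenase, at 0.22 and -0.39, Gbp4, an interferon-induced GTPase, at 0.11 and -0.96, and Spon2, an extracellular matrix protein, at 0.10 and -0.62. A second Sdhaf4 probe, which was dimmer, stood at -0.09 at 7 h. Angptl4 (-0.60 and -0.40), Cd300lg (-0.86 and -0.60) and Abcg3 (0.42 and 0.66) had the same sign at both times. Of the 23 tested glucocorticoid genes, Angptl4 among them, 13 stood higher and 10 lower at 25 h. Pdk4 (-0.70 and -0.35) and Per1 (-0.22 and -0.19) also kept their sign. Other members stood at -1.16 and 0.26 for Zbtb16, -0.43 and 0.00026 for Ddit4 and -0.51 and 0.07 for Fkbp5. For these 3 the difference between the times did not pass (adjusted p = 1.00 for each).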

How the data were processed

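Total RNA of lung tissue was hybridised to 8 Affymetrix arrays. The authors deposited log2 expression values made with RMA, per the submitters' processing notes, and the version of RMA is not given in the sources used here. Values ran from 2.00 to 13.98. Of 34760 probes, 21640 had exactly 1 gene symbol, 1321 several and 11799 were unnamed here. The brightest probe by mean over the 8 arrays stood for each of 19937 genes, and the 14953 whose mean reached the 25th percentile of all genes (5.93) were tested. The test was limma 3.58.1 (lmFit and eBayes, R 4.3.3, files read by data.table at version 1.17.8) with 1 mean per group over all 8 arrays and Benjamini-Hochberg adjustment, called at 0.05, repeated without mepenzolate replicate 2. The scripts were tested on simulated data. The number of arrays limits the precision: the median SE of a difference was 0.099.

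Named genes were the 12 per direction with the smallest unadjusted p and no overlap, 6 per direction without replicate 2, 6 with the widest gap in each pair, 4 per direction for the difference between times, leading members of each list and 19 genes fixed by name. Clones, predicted, small RNA, receptor-repertoire and olfactory genes were passed over. The members and the 53 lists (765 of 913 entries tested) were chosen with earlier results of these data known. Alternatives covered normalization, filters, probe choice, array weights, moderation, the replicate block and each array left out.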

Additional observations from a re-analysis of the deposited data

How the results depend on the processing

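With 2 arrays a group, the comparison resolves only large differences. No gene passed at 7 h, and the direction counts stayed within 1.5 times of 111 higher and 246 lower, under quantile normalization (149 and 291), median centring (82 and 208), array weights (77 and 176), trended robust moderation (106 and 255), the mean of probes (114 and 243) and the 7 h arrays alone (84 and 188). With no filter 175 genes stood higher and with a filter at the 50th percentile 67, and 0 passed. Fitting the replicate number as a replicate block gave 0 passing, 163 higher and 346 lower. The gaps between replicates of the 2 groups at 7 h had r = 0.330 across genes. The labels do not say what a number shares, and with 2 numbers whether they pair the arrays was not settled. Leaving out 1 array at a time gave 0 to 2 genes past adjustment, 87 to 407 higher, 189 to 730 lower, and 0 to 2 for the difference between times.

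Quantile normalization turned Ctse (-0.016), Scgb1a1 (-0.011) and Sftpc (0.018). Leaving out 1 array turned the sign of the following differences, given as lowest to highest: Ctse -1.18 to 1.28, Scgb1a1 -0.0043 to 0.050, Sftpc -0.045 to 0.024, Rdh9 -0.63 to 0.060, Slc37a1 -0.12 to 1.24, Saa3 -0.86 to 1.47, Lcn2 -0.54 to 0.80, Car3 -0.22 to 1.55, H2-Ea -5.05 to 0.40, Ang5 -0.35 to 3.81, D17H6S56E-5 -2.24 to 0.048, Chrm1 -0.12 to 0.0043, Chrm2 -0.18 to 0.067, Chrm3 -0.51 to 0.25, Hdac2 -0.025 to 0.064, Nfe2l2 -0.0034 to 0.026, Cybb -0.14 to 0.22, Ncf1 -0.014 to 0.080, Sod1 -0.16 to 0.040, Tnf -0.063 to 0.28, Cxcl1 -0.0011 to 0.19, Mmp12 -0.018 to 0.27, Eln -0.14 to 0.29, Gbp4 -0.11 to 0.32, Ccdc39 -0.81 to 0.063 and Rsph1 -0.86 to 0.51. The cause was not tested.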
